A study of Homo sapiens with 4 samples.

Results

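NODAL, GDF3, TDGF1, LEFTY1, LEFTY2, CER1, FOXH1, ACVR1B, ACVR2A and ACVR2B make up the core of the NODAL signalling pathway as studied here. These 10 genes were chosen by name, and each matched a single gene of the 26364 counted per library. Messenger RNA was sequenced in NTERA2 cells (clone CRL-1973), a human embryonal carcinoma line that keeps the pluripotent gene programme. In the labels it is a lung carcinoma of embryonic stem cell origin. The labels form 2 groups of 2 libraries: BEND3 LacZ holds replicates 1 and 3, BEND3 sh60 holds replicates 1 and 2, and no other treatment, allele or time is named for either. The labels do not define these names. Here sh60 is taken to be a short hairpin that targets BEND3, a chromatin-binding repressor, and LacZ to be its control. A single line and a single hairpin were sampled. Nothing states that replicates were grown as separate cultures, so p-values measure only the spread between these libraries, which may be technical.

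NODAL and GDF3 are secreted ligands of the TGF-beta superfamily. They act through a type I receptor (ACVR1B, also called ALK4) and a type II receptor (ACVR2A or ACVR2B), with the membrane-anchored coreceptor TDGF1 (CRIPTO), and the activated receptors phosphorylate SMAD2 and SMAD3. These bind SMAD4 and reach DNA with partners such as FOXH1. LEFTY1, LEFTY2 and CER1 are secreted antagonists, and the LEFTY genes are themselves targets of the pathway, which gives it a negative feedback loop. In the early embryo the pathway induces mesendoderm, and in human pluripotent cells activin or NODAL signalling helps to maintain the undifferentiated state.

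The sh60 libraries held less mRNA of both ligands, of the coreceptor and of the transcription factor FOXH1, and more mRNA of the antagonist LEFTY1. FOXH1 fell 2.21-fold, NODAL 1.70-fold, GDF3 1.46-fold and TDGF1 1.40-fold, while LEFTY1 rose 1.49-fold (n = 2 libraries per group). The receptors ACVR1B, ACVR2A and ACVR2B and the antagonists LEFTY2 and CER1 did not pass the test. All 10 genes had enough counts to be tested, and 4 of them fell, 1 rose and 5 did not pass edgeR's quasi-likelihood test at an adjusted p of 0.05. Over all 16040 tested genes 28.8% passed that test, 15.8% higher and 13% lower in sh60. Without LacZ replicate 3, 3 of the 10 genes and 2287 of all tested genes passed, and without LacZ replicate 1 the count over all genes was 2968. The median log2 fold change was -0.20 over the 10 genes and -0.0042 over all tested genes. In bulk RNA, fewer cells that express a gene and less of its RNA per cell cannot be told apart.

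**Figure D1:**
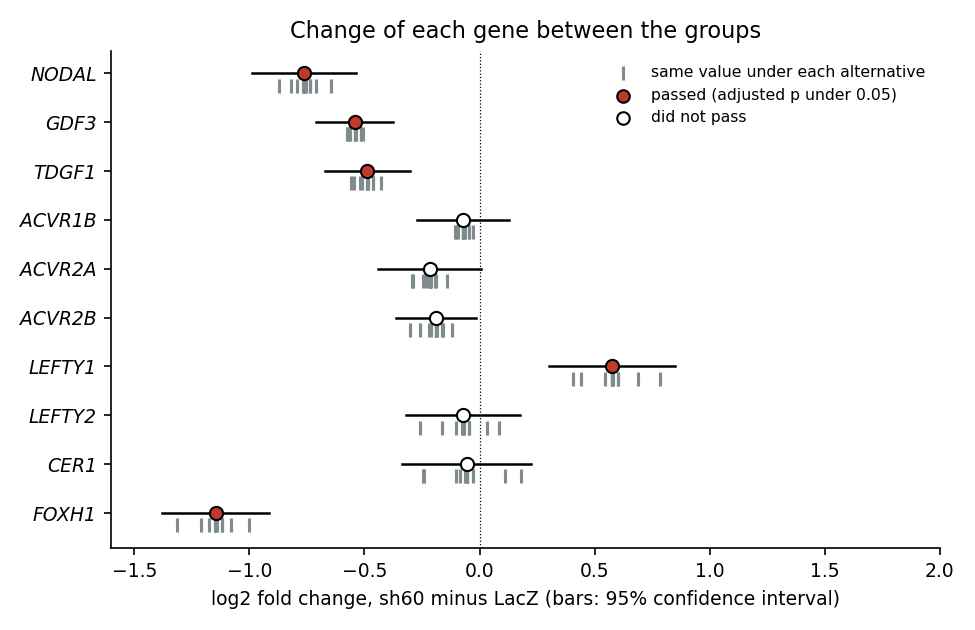
Log2 fold change (sh60 minus LacZ) of each NODAL pathway gene by edgeR, with its 95% confidence interval, filled where the adjusted p was under 0.05; grey ticks give the same value under each of 12 alternative analyses. FOXH1, at -1.15, lies farthest from 0, LEFTY1 alone passed on the higher side, and the ticks of LEFTY2 and CER1 lie on both sides of 0.

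The libraries held between 30338285 and 44788461 counts, and a level below is a CPM value, the counts of a gene divided by the TMM-scaled size of its library (trimmed mean of M-values). A single count was worth 0.0221 to 0.0333 CPM. BEND3 measured 68.8 and 79.3 CPM in the LacZ libraries and 55.7 and 51.96 CPM in the sh60 libraries (log2 fold change -0.46, SE 0.098, edgeR adjusted p = 0.00168), and this call was lost without LacZ replicate 3 (adjusted p = 0.153, range over the alternatives 3.85e-05 to 0.153). All 12 listed embryonal carcinoma markers had enough counts to be tested, 1 of them higher and 4 lower in sh60. By means in LacZ and sh60, DNMT3B (918 and 559 CPM), LIN28B (169 and 124 CPM), SALL4 (140 and 113 CPM) and NANOG (109 and 91.3 CPM) were lower. SOX2 (122 and 150.5 CPM) was higher, and POU5F1 (OCT4), at means of 945 CPM in LacZ and 963 CPM in sh60, did not pass. Of 11 lung markers, SFTPB and SCGB1A1 had 0 counts in every library, which allows up to 0.0998 CPM in the shallowest, and NKX2-1 had 1 count in all. Lung markers summed to 21.4 and 22.9 CPM in LacZ and 18.7 and 18.9 CPM in sh60, most of it SCGB3A2. Of the 11 lung markers 4 were tested. By group means FOXJ1 (0.337 to 0.746 CPM) passed as higher and AGER (5.37 to 3.76 CPM) as lower in sh60. Of 10 fibroblast markers 9 were tested, 4 of them higher and 2 lower in sh60. None of the 10 was at 0 in all libraries, and their sum was 448 to 545 CPM in LacZ and 930.2 to 1096 CPM in sh60. COL1A1 measured 141 and 84.9 CPM in LacZ and 554 and 684 CPM in sh60, and the other 9 fibroblast markers summed to 403 and 363 CPM in LacZ and 376.5 and 412 CPM in sh60. That sum holds changes in both directions. By group means, COL1A2 (16.6 to 73.4 CPM), LUM (8.91 to 27.7 CPM) and S100A4 (2.755 to 5.98 CPM) also passed as higher in sh60. THY1 (231 to 182 CPM) and PDGFRA (22.9 to 18.6 CPM) passed as lower. Of 8 endothelial markers 5 were tested, and 4 of these were lower in sh60 (KDR, VWF, CDH5 and ERG). EMCN was at 0, and the sum of the 8 was 92.2 to 106 CPM in LacZ and 80.0 to 85.7 CPM in sh60. Of 8 trophoblast markers in the files 3 were tested, and 1 of these was higher. CGB5 was at 0, and the sum of the 8 was 90.6 to 103 CPM in LacZ and 118 to 129 CPM in sh60. Blood markers summed to 3.06 to 3.39 CPM in every library, with PTPRC and HBB at 0. Of the 10 blood markers 3 were tested, and LYZ (0.278 to 0.684 CPM by group means) passed as higher. The part of these differences in the NODAL pathway results was not tested.

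Both ligands fell. NODAL (chromosome 10, 72191692 to 72201465, minus strand, hg19) stood at 41.4 CPM in LacZ replicate 1 and 48.5 CPM in LacZ replicate 3, against 25.4 CPM in sh60 replicate 1 and 27.4 CPM in sh60 replicate 2, from 864 to 1742 counts per library. Every sh60 library lay below both LacZ libraries. The means were 44.9 ± 5.05 and 26.4 ± 1.45 CPM (SD, n = 2 each), and the log2 fold change was -0.76 (SE 0.11, 95% confidence interval -0.99 to -0.54, edgeR adjusted p = 3.51e-05). That change was larger in size than those of 88.5% of tested genes. GDF3 (chromosome 12, 7842381 to 7848360, minus strand), a ligand that also uses TDGF1, measured 308 and 320.5 CPM in LacZ and 210.5 and 221 CPM in sh60. The 4 values formed separate pairs, and replicates differed by at most 0.072 on the log2 scale against a fold change of -0.54 (SE 0.080, 95% confidence interval -0.71 to -0.37, edgeR adjusted p = 5.53e-05). Both calls held under all 12 alternatives.

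**Figure D2:**
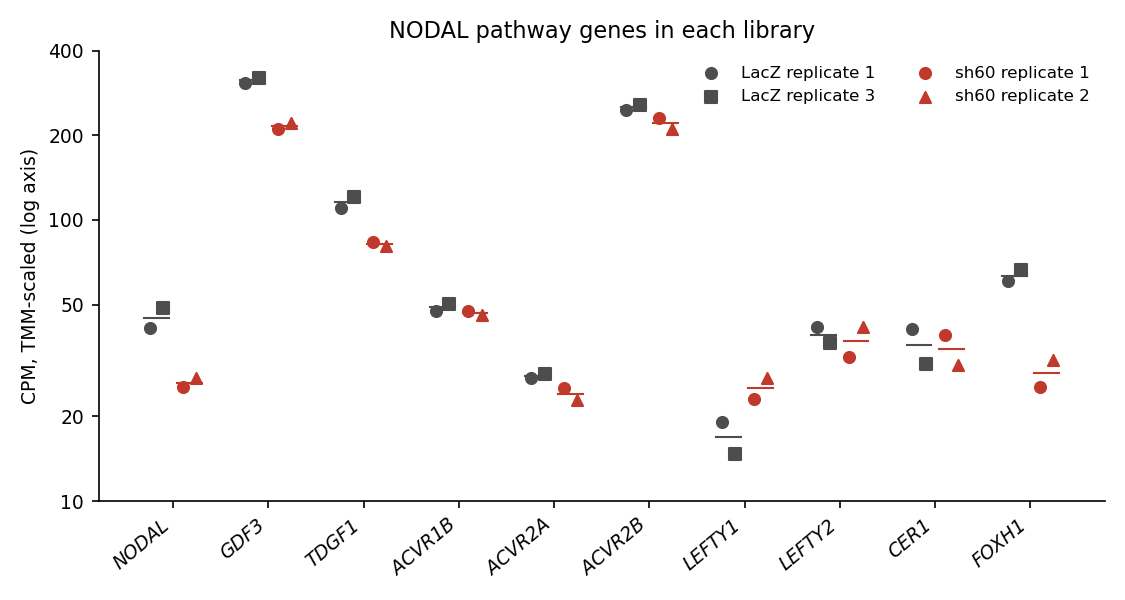
TMM-scaled CPM of each NODAL pathway gene in each of the 4 libraries on a log axis; bars mark the mean of each group (n = 2). For FOXH1, NODAL, GDF3, TDGF1 and LEFTY1 the groups do not overlap, while LEFTY2 and CER1 show libraries of both groups at like levels.

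The sequences just upstream of the start sites of NODAL and GDF3, which fell, and of the antagonist CER1, which did not pass, are shown because FOXH1 and the SMADs act by binding DNA. Starts from RefSeq (GRCh38.p14) were used for 6 of the 10 genes, with 7 starts in all. FOXH1, TDGF1, LEFTY1 and LEFTY2 were left out of this search, and no sequence is shown for them. Their absence here does not mean that RefSeq lacks a start for them. Each line holds the 250 bases before the annotated start, 5′ to 3′ on the gene's own strand, with motif matches in capitals. NODAL lies at chr10:70441682-70441931, GDF3 at chr12:7695776-7696025 and CER1 at chr9:14722734-14722983, all on the minus strand.
NODAL: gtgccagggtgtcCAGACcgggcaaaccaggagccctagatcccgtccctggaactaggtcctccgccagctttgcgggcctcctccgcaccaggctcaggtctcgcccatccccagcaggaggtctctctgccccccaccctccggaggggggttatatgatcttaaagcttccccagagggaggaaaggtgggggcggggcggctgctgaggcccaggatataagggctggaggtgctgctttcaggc
GDF3: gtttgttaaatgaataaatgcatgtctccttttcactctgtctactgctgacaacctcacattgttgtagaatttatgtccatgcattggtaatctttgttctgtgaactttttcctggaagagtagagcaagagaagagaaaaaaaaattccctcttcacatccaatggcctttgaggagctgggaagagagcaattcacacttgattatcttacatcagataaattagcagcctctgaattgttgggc
CER1: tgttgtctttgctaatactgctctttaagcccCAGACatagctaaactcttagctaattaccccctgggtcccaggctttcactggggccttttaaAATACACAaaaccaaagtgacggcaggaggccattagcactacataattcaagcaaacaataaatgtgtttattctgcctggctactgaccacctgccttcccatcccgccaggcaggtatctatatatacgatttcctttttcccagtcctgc
The motifs were AATACACA and AATCCACA, forms of the sequence that FOXH1 is known to bind, and CAGAC, a SMAD-binding element. Both strands were searched, the motifs do not overlap one another here, and they were chosen with these sequences in view. CER1 held AATACACA beginning 154 bases before its start. The other 6 starts held neither FOXH1 form, and 1.37% of all 35116 RefSeq windows of this length held one. CAGAC was found once each in NODAL (237 bases before the start), in CER1 (218 bases before) and at the second start of ACVR1B (124 bases before), and in 38% of all windows. The match in CER1 stands beside a level that did not pass the test, described below. A match describes letters and not a bound site. Only these 250 bases were searched, so a gene without a match here may hold one elsewhere.

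The coreceptor TDGF1 fell as well. TDGF1 (chromosome 3, 46616045 to 46623952, plus strand) measured 111 and 121 CPM in LacZ and 83.8 and 81.0 CPM in sh60. Both sh60 libraries lay below both LacZ libraries, with means of 116 ± 6.96 and 82.4 ± 1.98 CPM (SD, n = 2 each). The log2 fold change was -0.49 (SE 0.088, 95% confidence interval -0.67 to -0.30, edgeR adjusted p = 0.000389). Without LacZ replicate 3 it was -0.43 and no longer passed (adjusted p = 0.0571, range over the alternatives 3.51e-06 to 0.0571). TDGF1 shares sequence with processed pseudogenes: of the 50-base windows in its longest GENCODE transcript, 41.2% also occur in a gene at another locus, mostly TDGF1P3. Of its 100-base windows 18.4% do. The read length was not given in the sources used here, so the share that applies is unknown. TDGF1P3 itself had 3 to 8 counts per library. The level of TDGF1 is therefore uncertain.

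None of the receptors passed the test. ACVR1B, the type I receptor that phosphorylates the SMADs, measured 47.6 and 50.4 CPM in LacZ and 47.4 and 45.9 CPM in sh60, and its log2 fold change of -0.072 had a 95% confidence interval of -0.27 to 0.13 (edgeR adjusted p = 0.626). The type II receptor ACVR2A measured 27.5 and 28.4 CPM in LacZ and 25.3 and 22.8 CPM in sh60 (log2 fold change -0.22, 95% confidence interval -0.44 to 0.0072, edgeR adjusted p = 0.141). ACVR2B, the other type II receptor, measured 246.5 and 256 CPM in LacZ and 231 and 210.2 CPM in sh60 (log2 fold change -0.19, 95% confidence interval -0.36 to -0.016, edgeR adjusted p = 0.0963). In all 3 receptors the sh60 libraries lay below both LacZ libraries, by small steps. The groups did not overlap in 8 of the 10 NODAL pathway genes and in 64.4% of all tested genes. ACVR2A and ACVR2B passed as lower in some alternatives. Without sh60 replicate 1 their log2 fold changes were -0.29 and -0.26. With GC and length trends removed, a setting chosen after seeing the data, they were -0.29 and -0.30 (edgeR adjusted p = 0.00734 and 0.000833). DESeq2 called neither (adjusted p = 0.221 and 0.128). Over the alternatives the log2 fold changes ran from -0.29 to -0.14 for ACVR2A and from -0.30 to -0.12 for ACVR2B.

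Of the 3 antagonists, LEFTY1 rose. LEFTY1 (chromosome 1, 226073982 to 226076846, minus strand) measured 19.0 and 14.7 CPM in LacZ and 23.1 and 27.4 CPM in sh60, from 442 to 1239 counts. Both sh60 libraries lay above both LacZ libraries, and LacZ replicate 1 lay nearer to them than LacZ replicate 3. The means were 16.9 ± 3.07 and 25.2 ± 3.06 CPM (SD, n = 2 each), with a log2 fold change of 0.575 (SE 0.13, 95% confidence interval 0.30 to 0.85, edgeR adjusted p = 0.00282). Without LacZ replicate 3 it was 0.41 and no longer passed (adjusted p = 0.105, range over the alternatives 1.76e-05 to 0.105). LEFTY2 (chromosome 1, 226124298 to 226129083, minus strand), its neighbour and close relative, measured 41.6 and 36.5 CPM in LacZ and 32.7 and 41.5 CPM in sh60. The groups overlapped, and the log2 fold change was -0.072 (95% confidence interval -0.32 to 0.17, edgeR adjusted p = 0.693). CER1 (chromosome 9, 14719732 to 14722715, minus strand), a secreted protein that binds NODAL and BMPs, measured 40.96 and 30.6 CPM in LacZ and 38.9 and 30.4 CPM in sh60. Each group held a high and a low library, 0.42 apart on the log2 scale in LacZ and 0.35 apart in sh60, and the groups overlapped (log2 fold change -0.056, 95% confidence interval -0.34 to 0.23, edgeR adjusted p = 0.797). The sign of the LEFTY2 value turned without LacZ replicate 1 (0.032) and without sh60 replicate 1 (0.086), and that of CER1 without LacZ replicate 1 (0.18) and without sh60 replicate 2 (0.11).

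The balance between the 2 LEFTY genes differed between the groups. LEFTY1 made up 31.4% (95% confidence interval 29.6% to 33.2%) and 28.7% (26.5% to 31.1%) of the counts of both genes in LacZ replicates 1 and 3. In sh60 replicates 1 and 2 the share was 41.4% (39.1% to 43.6%) and 39.7% (38.0% to 41.5%). These intervals are exact Clopper-Pearson intervals and cover counting error only. The group means were 30.1% ± 1.87 and 40.5% ± 1.16 (SD, n = 2 each), so the difference was larger than the spread between replicates, but 2 libraries against 2 cannot give an exact two-sided permutation p below 0.333. Summed over both genes the level was 55.9 ± 6.71 CPM in LacZ and 62.3 ± 9.31 CPM in sh60, ranges that overlapped. The share compares counts within a library, so it does not depend on the scaling. Of the 50-base windows in the longest GENCODE transcripts, 31.3% of those of LEFTY1 also occur in LEFTY2, and 22% of those of LEFTY2 also occur in LEFTY1. With 100-base windows these shares were 17.4% and 12.1%. A read that lies within such a window cannot be placed in 1 gene and would be left out by the counting, so the levels of both genes are uncertain.

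**Figure D3:**
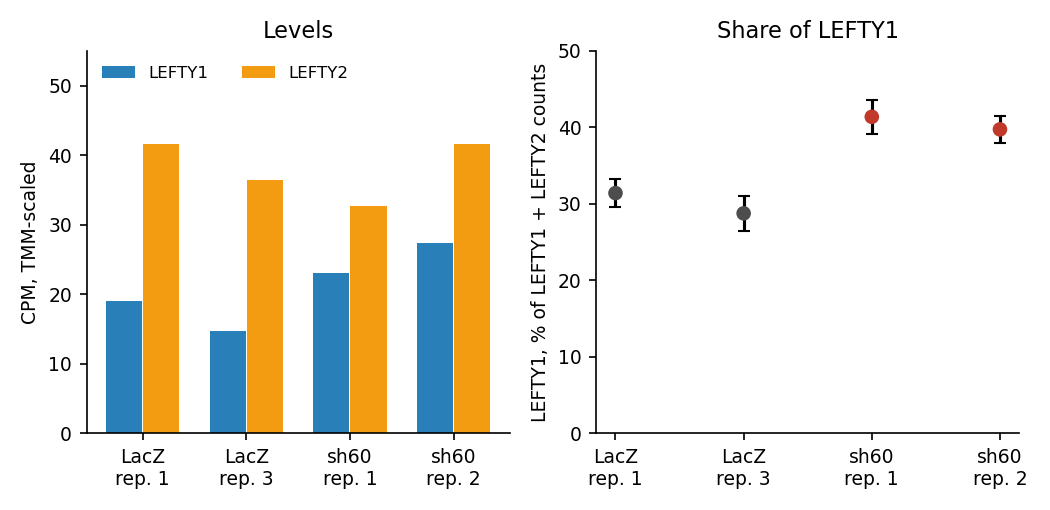
LEFTY1 and LEFTY2 in each library: TMM-scaled CPM on the left, and on the right the share of LEFTY1 in the counts of both genes with its 95% Clopper-Pearson interval. LEFTY2 bars span 32.7 to 41.6 CPM with no separation of the groups, and the share lies near 30.1% in LacZ and 40.5% in sh60.

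FOXH1, the forkhead factor that brings activated SMADs to DNA, changed most in size of the 10 genes. FOXH1 (chromosome 8, 145699115 to 145701718, minus strand) measured 60.5 and 66.4 CPM in LacZ and 25.5 and 31.6 CPM in sh60, from 868 to 2548 counts. Both sh60 libraries lay far below both LacZ libraries, with means of 63.5 ± 4.18 and 28.6 ± 4.35 CPM (SD, n = 2 each). The log2 fold change was -1.15 (SE 0.11, 95% confidence interval -1.38 to -0.91, edgeR adjusted p = 6.34e-07), larger in size than that of 95.1% of tested genes. The call held under all 12 alternatives, with values from -1.31 to -1.002. Genes that passed with a log2 change of at least 1 in either direction made up 5.83% of those tested, and FOXH1 was the 1 gene of the 10 among them. Exons of FOXH1 overlap those of KIFC2 on the opposite strand, and those of ACVR2A overlap ORC4 on the opposite strand. The counting used strand, so reads of these neighbours were kept apart as far as the library kit keeps strand.

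Levels can be compared between genes only per length, as CPM per kilobase of exon. On this scale GDF3 was the highest of the 10 genes, at 257 ± 7.07 CPM per kilobase in LacZ and 176 ± 6.26 in sh60 (SD, n = 2 each), and ACVR2A the lowest, at 5.13 ± 0.115 and 4.42 ± 0.317. TDGF1 followed GDF3 in both groups (52.8 ± 3.18 and 37.6 ± 0.901 CPM per kilobase), and CER1 came next (29.7 ± 6.05 and 28.7 ± 4.97). In LacZ the order went on with FOXH1 (29.1), ACVR2B (22.1), NODAL (21.5), LEFTY2 (17.9), LEFTY1 (10.4), ACVR1B (10.2) and ACVR2A. The libraries overlapped between CER1 and FOXH1, between ACVR2B and NODAL and between LEFTY1 and ACVR1B, so these neighbours did not differ beyond their spread. In sh60 the order after CER1 was ACVR2B (19.4), LEFTY2 (17.0), LEFTY1 (15.5), FOXH1 (13.1), NODAL (12.7), ACVR1B (9.70) and ACVR2A, and the libraries overlapped between each neighbour from ACVR2B down to NODAL. FOXH1 moved from the fourth to the seventh place and NODAL from the sixth to the eighth, below both LEFTY genes. LEFTY1 had 0.615 and 0.542 times the level of LEFTY2 per length in the LacZ libraries and 0.949 and 0.886 times in the sh60 libraries. Reads left out because they map to several places lower the values of TDGF1, LEFTY1 and LEFTY2 by an unknown amount.

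**Figure D4:**
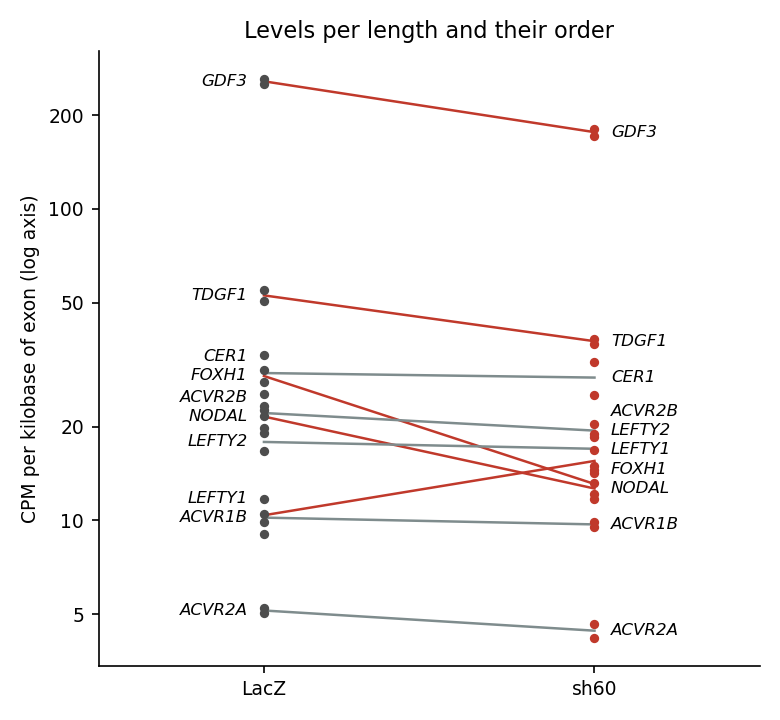
CPM per kilobase of exon on a log axis for each gene in LacZ and sh60; points are libraries, lines join group means (n = 2), and red lines mark genes that passed the edgeR test. GDF3 stays highest and ACVR2A lowest, and the lines of FOXH1 and NODAL cross that of LEFTY1.

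Other genes of the pathway were described from 4 lists by role, beside the 28.8% of all tested genes that passed. Of 7 tested ligand and processing genes 2 rose, 2 fell and 3 did not pass (median log2 fold change 0.23). INHBA and INHBB encode activin subunits that use the same receptors. INHBA measured 1.99 and 0.632 CPM in LacZ and 4.46 and 4.51 CPM in sh60 (log2 fold change 1.69, 95% confidence interval 1.08 to 2.31, edgeR adjusted p = 0.000267). Its LacZ libraries differed from each other by 1.66 on the log2 scale, its value was 2.83 without LacZ replicate 1 and 1.17 without LacZ replicate 3, and DESeq2 did not call it (adjusted p = 0.0730, range over the alternatives 2.62e-15 to 0.0730). INHBB moved the other way, from 2.04 and 1.66 CPM in LacZ to 0.499 and 0.464 CPM in sh60 (log2 fold change -1.96, edgeR adjusted p = 8.38e-05). PCSK6, a convertase that cleaves NODAL precursor, measured 24.2 and 23.9 CPM in LacZ and 17.3 and 18.6 CPM in sh60, a fall that was not called when either LacZ library was left out (adjusted p = 0.0815 and 0.0709). The related convertase gene PCSK5 rose from 6.002 to 8.30 CPM at the edge of the threshold (edgeR adjusted p = 0.0475), and lost its call in 5 of 12 alternatives, among them those without LacZ replicate 3 (0.461) and without sh60 replicate 2 (0.251).

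Among the other receptors and the SMADs, 3 of 8 tested genes rose, 1 fell and 4 did not pass (median log2 fold change 0.14). TGFBR2, the type II receptor for TGF-beta, measured 9.50 and 6.89 CPM in LacZ and 14.6 and 15.2 CPM in sh60 (log2 fold change 0.85, SE 0.15, edgeR adjusted p = 0.000245). ACVR1, a type I receptor mainly of the BMP branch, measured 58.6 and 54.4 CPM in LacZ and 40.9 and 40.3 CPM in sh60 (log2 fold change -0.48, edgeR adjusted p = 0.00101). The signal transducers SMAD2 and SMAD3 rose by little, from 55.6 to 67.9 CPM and from 100.5 to 121 CPM (log2 fold changes 0.29 and 0.27). The SMAD2 and SMAD3 calls were lost when either LacZ library was left out (log2 fold changes 0.24 to 0.31). That of ACVR1 was lost without LacZ replicate 1 (log2 fold change -0.42). These calls held in the other alternatives, and that of TGFBR2 held in all. SMAD4, the partner of SMAD2 and SMAD3, measured 86.2 and 78.5 CPM and did not pass, and was named after its value was seen.

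Of 14 tested antagonists and intracellular brakes 3 rose, 1 fell and 10 did not pass (median log2 fold change 0.032). FSTL3, a secreted activin-binding protein, rose from 7.98 to 11.3 CPM, SMURF2, a ubiquitin ligase acting on the pathway, from 34.2 to 42.6 CPM, and SMAD7, the inhibitory SMAD, from 58.3 to 71.7 CPM. TGIF2, a nuclear SMAD corepressor, fell from 150 ± 8.92 to 121 ± 5.74 CPM (SD, n = 2 each). None of the 3 rises was called without LacZ replicate 3 (adjusted p = 0.0510 for FSTL3, 0.383 for SMURF2 and 0.687 for SMAD7), and neither was the fall of TGIF2 (0.36). SMURF2 and TGIF2 also lost their calls without LacZ replicate 1 (adjusted p = 0.119 and 0.0973), and FSTL3 and SMAD7 without sh60 replicate 2 (adjusted p = 0.0567 and 0.0699). The SMAD7 call was lost in 4 of 12 alternatives, among them DESeq2 (adjusted p = 0.0618) and DESeq2 size factors in edgeR (adjusted p = 0.0508), and in both of these 2 genes of the list rose in place of 3.

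Of 14 tested transcriptional targets 9 fell, 2 rose and 3 did not pass, and their median log2 fold change, -0.92, was the lowest of the 4 lists. MIXL1, a homeobox gene of the primitive streak, measured 529 and 560 CPM in LacZ and 185 and 177 CPM in sh60. EOMES, a T-box factor of mesendoderm, measured 401.5 and 437 CPM in LacZ and 153 and 143 CPM in sh60. TBXT (brachyury), listed under its older symbol T, measured 95.4 and 114 CPM in LacZ and 28.1 and 26.3 CPM in sh60, and WNT3, a ligand of the streak, 63.1 and 66.9 CPM in LacZ and 28.5 and 27.8 CPM in sh60. In these 4 genes each sh60 library lay far below both LacZ libraries, and their calls held under every alternative that gave a value. PMEPA1, a target of SMAD signalling that limits it, was among those that rose and was named after its value was seen. It went from 82.7 to 105 CPM (log2 fold change 0.34, edgeR adjusted p = 0.00734). With either LacZ library left out, 1 target rose in place of 2. These genes were known from earlier results of the same libraries, so their directions are no independent evidence on the pathway.

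**Figure D5:**
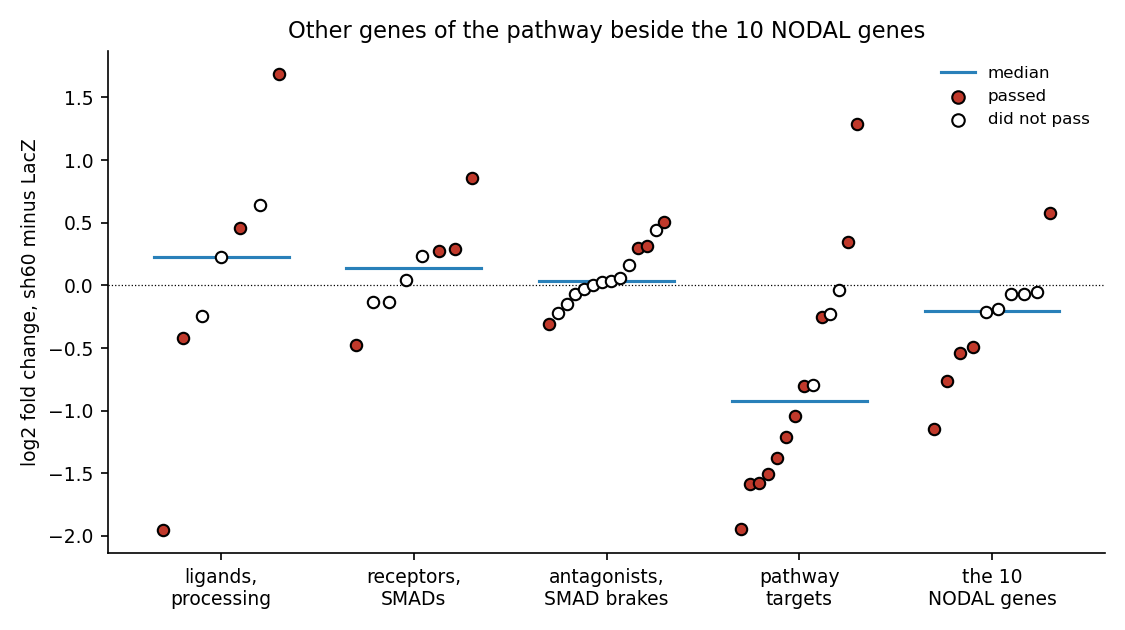
Log2 fold change (sh60 minus LacZ) of each tested gene in 4 lists of other pathway genes and of the 10 NODAL pathway genes, in order of size within a list; filled points passed the edgeR test and blue lines are medians. The targets have the lowest median, -0.92, and the medians of the other 3 lists lie between 0.032 and 0.23.

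The tested genes whose 4 library values most resembled those of NODAL, by the root mean square difference of centred log2 CPM among 9844 genes with a mean of 10 CPM or more, were CDK18 (0.0256), PTP4A3 (0.0313) and MT1X (0.0333). Those most like LEFTY1 were SYDE1 (0.0233), GLIPR2 (0.0275) and MXD4 (0.0327). CDK18 measured 53.4 and 61.3 CPM in LacZ and 33.5 and 34.8 CPM in sh60, and SYDE1 31.7 and 25.5 CPM in LacZ and 38.5 and 46.1 CPM in sh60. With 4 libraries and many candidates, close matches of this kind are a description only.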

How the data were processed

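Single-end, stranded mRNA libraries of NTERA2 cells were compared, 2 per group, from 1 table per library. The values are raw counts deposited by the authors, made with featureCounts of Subread 2.0.0 over exons with strand setting 2, per the file headers. The submitters' processing notes name STAR 2.7.6a and the hg19 build. The header command has no option for multi-mapping reads, which the tool then leaves out by default. Groups and replicate numbers come from the titles. Replicates were not repeats of 1 library: chi-square divided by its degrees of freedom was 5.89 for LacZ and 15.8 for sh60 (genes with 20 counts or more).

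edgeR 4.0.16 in R 4.3.3 (filterByExpr, TMM, glmQLFit, glmQLFTest, group as the only term) tested 16040 genes, with Benjamini-Hochberg adjustment over all of them and a threshold of 0.05; the biological coefficient of variation was 7.33%. Each gene had 2 residual degrees of freedom, and edgeR added 15.9 prior degrees of freedom from all genes. The edgeR p-values therefore rest mostly on spread pooled over genes. The SE was computed as the size of the fitted coefficient before shrinkage, divided by the square root of the F statistic. The 95% interval was centred on that coefficient, while the printed log2 fold change is edgeR's shrunken value. The procedure was tested on simulated data. Alternatives were other scalings, DESeq2 1.42.0, limma-voom (limma 3.58.1), other count filters, each library left out, and, chosen after seeing the data, removal of GC and length trends with GENCODE transcripts matched by symbol (94.2% of tested genes, all 10 NODAL pathway genes). The 10 genes and all lists were chosen with earlier results of these data known. Named from each list were up to 4 genes past the threshold with the smallest p. Some listed genes are not reported here by name. Coordinates of genes are on hg19 as counted, and upstream sequences are on GRCh38.p14. The hairpin's sequence was not given in the sources used here.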

Additional observations from a re-analysis of the deposited data

How the results depend on the processing

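No paired analysis was possible because the groups share only replicate number 1. Of the 12 alternatives, 11 were planned. NODAL, GDF3 and FOXH1 passed in the same direction under all 12. With 1 library left out, the remaining one is assumed to vary like the other group; the count of all changed genes was then 2287 to 5486 (1331 to 2789 higher, 956 to 2697 lower), and that of changed NODAL pathway genes 3 to 7 (0 to 1 higher, 3 to 6 lower), lowest without LacZ replicate 3. Leaving out 1 library gave log2 fold changes of -0.54 to -0.43 for TDGF1, 0.41 to 0.78 for LEFTY1, -0.29 to -0.14 for ACVR2A, -0.26 to -0.12 for ACVR2B, -0.26 to 0.086 for LEFTY2 and -0.25 to 0.18 for CER1. The signs of LEFTY2 turned without LacZ replicate 1 (0.032) and without sh60 replicate 1 (0.086), and those of CER1 without LacZ replicate 1 (0.18) and without sh60 replicate 2 (0.11). The LEFTY1 share was 28.7% to 31.4% in LacZ and 39.7% to 41.4% in sh60. In the other lists, 1 to 4 ligand and processing genes were then higher and 1 to 3 lower, 1 to 4 receptors and SMADs higher and 0 to 2 lower, 0 to 4 antagonists and brakes higher and 0 to 3 lower, and 1 to 2 targets higher and 8 to 9 lower. With GC and length trends removed, 3496 genes were lower and 2864 higher, ACVR2A (-0.29) and ACVR2B (-0.30) passed as lower, and 2 receptors and 2 antagonists or brakes were lower. Under upper-quartile scaling ACVR2B passed (-0.22) and 2 antagonists or brakes were lower. Higher ligand and processing genes numbered 1 with DESeq2 size factors in edgeR and 0 by DESeq2. The cause of these shifts was not tested. No scaling moved the median of all genes by over 0.1. With 2 libraries per group, changes as small as those of the type II receptors passed or missed with the setting.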
